A study of Homo sapiens with 12 samples.

Results

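The stop codon is the point of an mRNA where coding sequence ends and the 3′ untranslated region (3′ UTR) begins. When a ribosome reaches it, release factors free the finished protein and the ribosome is then split and recycled. Eukaryotic translation initiation factor 3 (eIF3) is a multi-subunit complex best known for loading the small ribosomal subunit at the start of translation, and eIF3 has also been linked to termination and recycling. METTL16 is an RNA methyltransferase whose known substrates include U6 small nuclear RNA and the MAT2A transcript, and the region around stop codons is where N6-methyladenosine made by the METTL3 complex is dense in many mRNAs. The RNA immunoprecipitation (RIP) peaks of METTL16, eIF3a and eIF3b that lay across a stop codon are described here.

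A peak was counted as a stop-codon peak when at least 1 base of it fell on the stop codon of the canonical transcript of its gene, on the same strand, and no base fell on the start codon. Of 101848 peaks in 6 lists, 7848 met this rule. They were carried by 3371 of the 10610 genes with a peak that could be placed on a canonical transcript. The METTL16 lists held 1079 and 1100 stop-codon peaks in replicates 1 and 2. The eIF3a lists held 1536 and 674, and the eIF3b lists held 1825 and 1634. Each list had at most 1 gene with more than 1 such peak, so the counts of peaks and of genes are nearly the same.

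All samples came from HepG2, a human cell line established from a liver cancer. Per the study's methods, stable lines overexpressed 3XFlag-tagged METTL16, eIF3a or eIF3b, and cells were cross-linked with ultraviolet light before the pull-down. For each protein there were 2 RIP samples, with 6 input samples without antibody in all. According to the labels, METTL16 and eIF3b were pulled down with anti-Flag and eIF3a with anti-eIF3a. The lists are all named as Flag pull-downs, and if the labels are right, protein and antibody cannot be told apart. The labels do not state whether replicates came from separate cultures, while the methods mention biological replicates, and p-values measure the spread between these lists. Inputs entered only through the authors' peak calling, no list from cells without a tagged protein was used here, and the depth behind a peak is unknown. Among 10 hepatocyte and HepG2 marker genes, 8 carried a placed peak, including HNF4A, SERPINA1, APOB and AFP. APOH and TTR carried none in these lists. A peak is enrichment over input, so a gene without a peak may still be expressed.

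Sequences around the stop codon are shown for the 10 genes with a stop-codon peak in all 6 lists and the highest median fold enrichment, since their values are described further on. EIF3A is added because its stop codon decided whether 1 large peak met the rule. Each run gives 15 coding bases, the stop codon in capitals and 12 bases of 3′ UTR, on the transcript strand, from GENCODE release 44 on GRCh38.
SRRM2, stop codon at chr16:2770865-2770867, plus strand: tcctccaggtctccaTAAattgtctttggg
OXER1, stop codon at chr2:42762908-42762910, minus strand: ggctcctcccagggcTGAgggccagctgca
ZNF512B, stop codon at chr20:63959888-63959890, minus strand: aaggcgcctgaaaagTGAgcatggtgcgtg
HCFC1, stop codon at chrX:153949347-153949349, minus strand: aaggccgatggtcagTGAgaggaagctgac
SPOCK2, stop codon at chr10:72062760-72062762, minus strand: gggggctacatctggTAGacgccctcagga
MLLT6, stop codon at chr17:38725596-38725598, plus strand: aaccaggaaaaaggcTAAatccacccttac
NLGN2, stop codon at chr17:7417797-7417799, plus strand: tccaccactcgggtaTAGggggtgggtggg
PACS1, stop codon at chr11:66243278-66243280, plus strand: ggcagcaaggccaccTGAggccctgtctcc
GIGYF1, stop codon at chr7:100681719-100681721, minus strand: agcgtggatgactacTGAccagcccggacc
EFNA2, stop codon at chr19:1299943-1299945, plus strand: accctcctgggttccTAGtcccagccccgc
EIF3A, stop codon at chr10:119036039-119036041, minus strand: accacagtacgacgtTAAgtctcaagataa

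Stop-codon peaks were a smaller part of the eIF3a lists than of the METTL16 and eIF3b lists, but with 2 lists per protein none of these differences could pass a test. Of the placed peaks, 8.29% and 8.52% were stop-codon peaks for METTL16 (mean 8.40% ± 0.160, SD, n = 2). The shares were 7.21% and 5.30% for eIF3a (6.26% ± 1.35) and 8.95% and 8.31% for eIF3b (8.63% ± 0.451). Both eIF3a values lay below all 4 other values. METTL16 exceeded eIF3a by 2.15 percentage points and eIF3a differed from eIF3b by -2.37 percentage points (exact two-sided permutation test, p = 0.33 for each, the smallest that 2 against 2 allows). Without eIF3a replicate 2 these differences were 1.19 and -1.42 percentage points. METTL16 and eIF3b differed by -0.23 percentage points (exact permutation p = 0.67). The lists differed in length, from 12707 to 21310 placed peaks. Among the 5000 peaks of each list with the smallest p-value, METTL16 differed from eIF3b by -2.59 percentage points and from eIF3a by 2.24, and eIF3a from eIF3b by -4.83 (exact permutation p = 0.33, 0.67 and 0.33). Start-codon peaks, defined the same way at the other end of the coding sequence, had a share of 8.03% ± 0.501 for METTL16, 5.15% ± 0.328 for eIF3a and 7.83% ± 2.19 for eIF3b (SD, n = 2).

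The peaks were not centred on the stop codon but reached further into coding sequence than into the 3′ UTR. Median width on the exons was 269 and 298 bases for METTL16, 270 and 359 for eIF3a, and 329 and 300 for eIF3b in replicates 1 and 2. The median number of coding bases per peak was 152 to 193 across the 6 lists, against 83 to 102 bases of 3′ UTR. Between 62.3% and 70.2% of stop-codon peaks per list held more coding than 3′ UTR bases. The stop codon lay in the last exon for 93.2% to 95.7% of them, yet 48.4% to 56.8% had more than 1 block and so continued across a splice junction. Only 3.06% to 7.42% came within 50 bases of the transcript end, and 8 to 35 per list held only a part of the codon. eIF3a replicate 2 had the fewest, the widest and the most often spliced peaks: 18.1% had 5 or more blocks, against 8.71% to 14.9% in the other lists. In all lists, a peak that spans more bases meets a given codon more easily, so the width of these peaks is in part set by the rule.

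To compare the stop codon with other places, coverage was counted at points of the same transcripts, those with at least 600 coding bases and 350 bases of 3′ UTR. A codon counted as covered when any of its bases was, while the other points were single bases, so a codon was met more easily. No minimum length was set for the sequence before the start codon. The stop codon was covered by a peak in 19.0% and 18.0% of such genes in the METTL16 lists, 20.0% and 14.3% in the eIF3a lists, and 24.7% and 23.1% in the eIF3b lists. A point 300 bases into the 3′ UTR was covered less often in all 6 lists, between 8.97% and 13.7%. The stop codon exceeded it by 8.24 percentage points ± 2.47 (SD over 6 lists, exact two-sided sign-flip permutation test, p = 0.03125, the smallest that 6 lists allow). A coding point 300 bases before the stop codon was covered in 19.0% to 26.1% of genes, and the stop codon differed from it by -1.64 percentage points ± 2.29, above it in 2 of 6 lists (exact permutation p = 0.21875). This comparison depended on the setting: with a fold of at least 4, 5000 peaks per list, any transcript, overlap of the whole codon or point with 10 bases on each side, or a coding point 150 bases before the stop codon, the difference was between -3.81 and -2.12 percentage points (exact permutation p = 0.03125 for each). The start codon was covered in 13.0% to 25.4%, and the stop codon exceeded it in 5 of 6 lists by 2.63 percentage points ± 2.81 on average (exact permutation p = 0.0625). eIF3b replicate 1 was the exception, with 24.7% at the stop codon and 25.4% at the start codon. With peaks of at least 4-fold enrichment alone, the difference between stop and start codon had the opposite sign, -1.71 percentage points. After Benjamini-Hochberg adjustment over the 16 sign-flip tests run, the lowest adjusted p was 0.0556, so none passed 0.05.

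**Figure D1:**
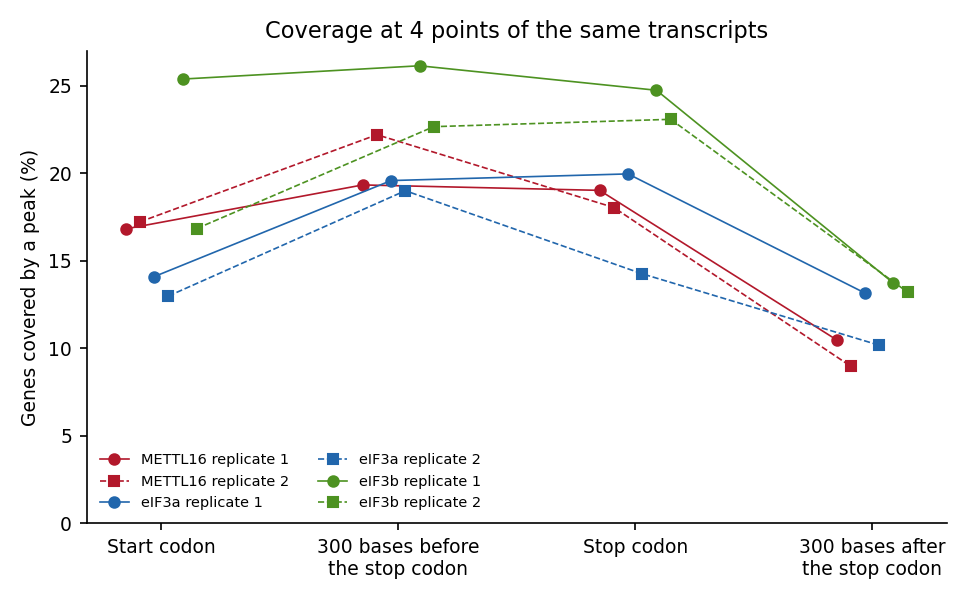
Share of genes (%) in which a peak covered the start codon, a coding point 300 bases before the stop codon, the stop codon, and a 3′ UTR point 300 bases after it, in the same long transcripts of each list (lines join the 4 points of 1 list, solid for replicate 1 and dashed for replicate 2). All 6 lists are lower at the 3′ UTR point, at 8.97% to 13.7%, than at the stop codon.

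Along the transcript, over 600 bases on each side of the stop codon, coverage was highest before the codon and lower after it. In 5 of 6 lists the maximum lay 100 to 150 bases before the stop codon, where 21.9% to 28.8% of genes were covered. At the stop codon itself coverage in these 5 lists was 16.7% to 24.0%, and 100 bases after it 12.1% to 16.8%. The eIF3a replicate 2 list had no such summit: its maximum, 21.3%, lay 525 bases before the stop codon, and its coverage was 14.1% at the codon and 10.3% at 100 bases after it. The decline across the codon was thus present in each list. The summit just before it was absent from eIF3a replicate 2, where coverage was already 21.2% at 600 bases before the codon. In METTL16 replicate 2 it was slight, at 21.9% against 20.3% at 600 bases before the codon.

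**Figure D2:**
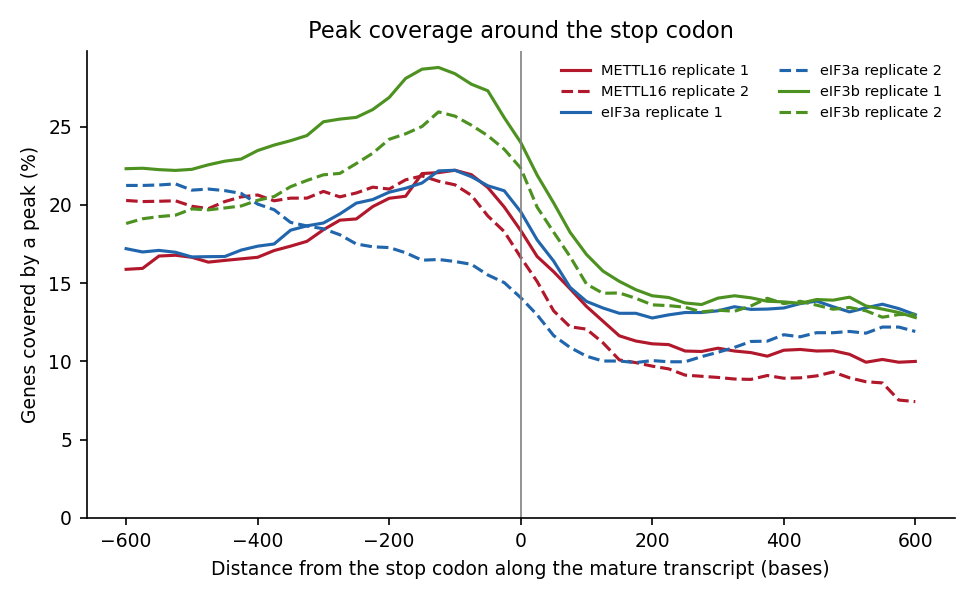
Share of genes (%) covered by a peak at each distance from the stop codon in bases of mature transcript, negative in coding sequence and positive in the 3′ UTR, with 1 line per list (solid for replicate 1, dashed for replicate 2). In 5 lists the line peaks 100 to 150 bases before the codon and then declines, while that of eIF3a replicate 2 is highest at 525 bases before it.

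Fold enrichment of RIP over input, as deposited by the authors, was moderate at stop codons. The median fold was 3.10 and 3.66 for METTL16, 2.94 and 2.90 for eIF3a, and 3.50 and 2.97 for eIF3b. Start-codon peaks had a higher median in all 6 lists, 3.24 to 4.49, and the mean log2 difference of stop from start was -0.25 ± 0.197 (SD, n = 6, exact sign-flip permutation p = 0.03125). Peaks within coding sequence had a lower median in all 6 lists, 2.52 to 3.03, and the mean log2 difference was 0.22 ± 0.0743 (exact permutation p = 0.03125). Peaks within the 3′ UTR had a higher median than stop-codon peaks in 5 of 6 lists, the exception being eIF3a replicate 2 with 2.80 against 2.90, and the log2 difference was -0.11 ± 0.101 (exact permutation p = 0.09375). Width moved with the second comparison, as coding peaks had a median of 180 to 210 bases. Among single-block peaks of 100 to 250 bases the difference from coding peaks turned to -0.10 (exact permutation p = 0.03125), that from 3′ UTR peaks became -0.29 (exact permutation p = 0.03125), and stop-codon peaks stayed below start-codon peaks at -0.35 (exact permutation p = 0.03125).

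**Figure D3:**
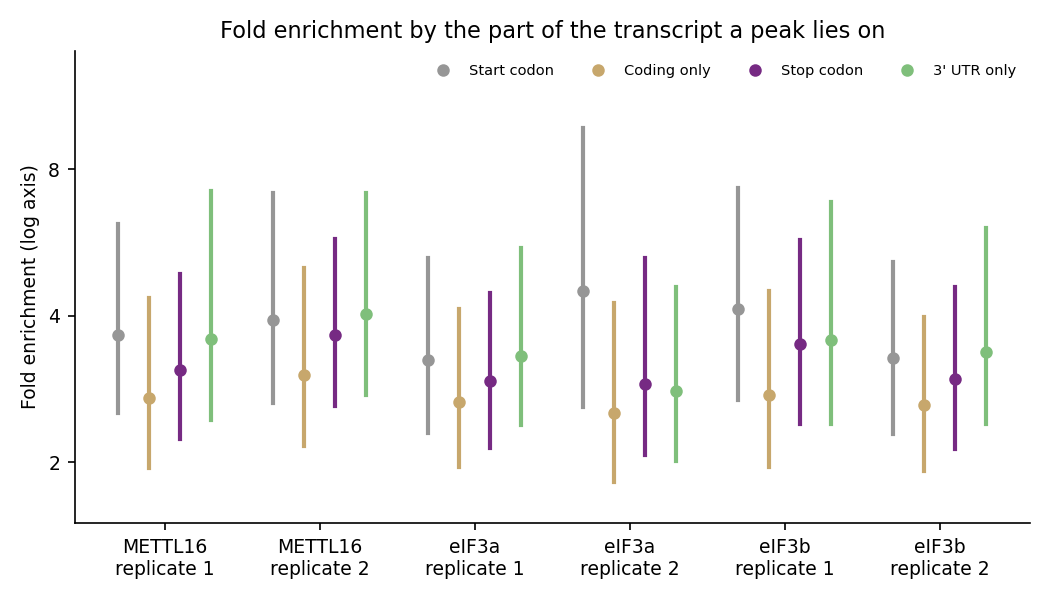
Fold enrichment over input on a log axis for peaks over the start codon, within coding sequence, over the stop codon and within the 3′ UTR, in each list (points are medians, bars span the lower to the upper quartile over peaks). Stop-codon medians, 2.90 to 3.66, lie below the start-codon and above the coding medians in all 6 lists.

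Strong stop-codon peaks were about as common as strong peaks anywhere. For METTL16, 374 (34.7%) and 488 (44.4%) stop-codon peaks had a fold of at least 4, against 35.6% and 40.7% of all placed peaks in these lists. For eIF3a the numbers were 465 (30.3%) and 229 (34.0%), against 32.2% and 30.0%. For eIF3b they were 773 (42.4%) and 507 (31.0%), against 37.9% and 32.2%. The direction thus differed between lists, with stop-codon peaks above the background in 3 of 6. Where a gene had other peaks in the same list, the stop-codon peak had the highest fold of the gene in 35.3% to 42.7% of cases. Between 18.2% and 25.7% of stop-codon peaks were the only peak of their gene.

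Stop-codon peaks overlapped a peak of the other replicate more often than peaks in general. The overlapping peak could be of any class and did not need to cover the stop codon. Of the METTL16 peaks, 71.3% and 70.4% overlapped a peak of the other replicate by at least 1 base, where all placed peaks gave 56.4% and 55.0%. The eIF3a peaks gave 44.8% and 82.3% against 39.5% and 60.2%, and the eIF3b peaks 74.4% and 78.5% against 60.0% and 65.5%. Stop-codon peaks were above the background in all 6 lists, and they were also wider than coding and 3′ UTR peaks, whose medians were 179 to 210 bases. The part of width in this was not tested. For start-codon peaks the same share was 33.6% to 81.2%, above that of stop-codon peaks only in METTL16 replicate 1 and eIF3b replicate 2. Where a gene had a stop-codon peak in both METTL16 lists, the peaks shared a median of 62.8% of the bases that either covered, with upstream edges 60 bases apart and downstream edges 30 bases apart in the median. The eIF3b pair gave 66.7%, 60 and 30 bases, and the eIF3a pair 50.4%, 120 and 60 bases. Pairs from different proteins reached 44.6% to 70.1%, the highest being eIF3a replicate 1 with eIF3b replicate 2.

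Which stop codons were covered differed much from list to list. Of the 3371 genes, 1435 (42.6%) had a stop-codon peak in 1 list only and 139 (4.12%) in all 6. A peak anywhere on the gene was present in all 6 lists for 25.3% of the 10610 genes. The Jaccard index, the shared genes as a fraction of those in either list, was 0.34 for the METTL16 pair, 0.22 for the eIF3a pair and 0.41 for the eIF3b pair, with a mean of 0.323 ± 0.0934 (SD, n = 3). Between proteins the mean was 0.282 ± 0.0855 (SD, n = 12). The difference of 0.041 had an exact one-sided permutation p of 0.0667 over the 15 ways to pair the lists, the smallest possible. The highest index of all, 0.424, belonged to eIF3a replicate 1 and eIF3b replicate 2, and 4 of the 12 pairs from different proteins reached the mean of the within-protein pairs. Without eIF3b replicate 2 the difference was 0.0084, and without eIF3a replicate 1 it was 0.12.

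METTL16 had a stop-codon peak in both lists for 551 genes, eIF3a for 403 and eIF3b for 1002. Of the 551 METTL16 genes, 343 (62.3%, 95% Wilson interval 58.1 to 66.2) also had one in both eIF3b lists and 159 (28.9%, 25.2 to 32.8) in both eIF3a lists. The shared genes were 34.2% of the eIF3b set and 39.5% of the eIF3a set. Both shares moved with the lists used. When 1 list was left out, so that its protein needed only the other, the eIF3a share was 65.0% without eIF3a replicate 2, 31.8% without eIF3a replicate 1 and 17.5% without METTL16 replicate 1. The eIF3b share was 40.9% without METTL16 replicate 1. With peaks of at least 4-fold, the shares were 39.1% for eIF3b and 14.3% for eIF3a. For genes with a peak anywhere the corresponding shares were 85.5% and 61.2%, and for start-codon peaks 51.5% and 10.7%. Intervals cover counting error over genes only. Most METTL16 stop-codon genes without an eIF3 stop-codon peak had an eIF3 peak elsewhere. Among genes with any placed peak in both METTL16 lists, 90.2% had an eIF3a peak in either list and 96.9% an eIF3b peak. That background includes genes with an eIF3 stop-codon peak, while the genes below were picked for lacking one, so the rates cannot be compared. Of the 177 genes with no eIF3a stop-codon peak in either list, 129 had another eIF3a peak, within coding sequence in 97 genes and within the 3′ UTR in 75. Of the 57 with no eIF3b stop-codon peak, 49 had another eIF3b peak, which covered both start and stop codon in 10.

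The 139 genes present in all 6 lists had stop-codon peaks whose fold differed between lists. Their median fold was 4.11 and 3.80 for METTL16, 2.83 and 2.11 for eIF3a, and 4.64 and 3.44 for eIF3b. Within a gene the highest of the 6 folds was 2.68 times the lowest in the median, and at most 7.06 times, for NLGN2. The stop codon lay in the last exon in 135 of the 139. The 10 with the highest median fold are described next, and since the rule chose them by fold, their values are a description without a test.

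SRRM2, which codes for a large protein of nuclear speckles and the spliceosome, had the highest median fold, 16.3. Its stop-codon peak had a fold of 18.9 and 11.6 for METTL16, 13.8 and 5.13 for eIF3a, and 18.8 and 24.7 for eIF3b. In 4 of the lists the peak ran to the transcript end, over all 545 bases of the 3′ UTR, after 652 to 4129 coding bases. OXER1, a G protein-coupled receptor gene with a single exon, had folds of 33.1 and 19.1 for METTL16, 9.09 and 6.85 for eIF3a, and 15.1 and 15.4 for eIF3b. Both METTL16 values were above both eIF3a values and, unlike in SRRM2, above those of eIF3b. HCFC1, a transcriptional coregulator, had 19.7 and 6.0, 8.34 and 11.1, and 14.2 and 12.8 for METTL16, eIF3a and eIF3b, and its METTL16 replicates thus spanned all the other values. The HCFC1 peak held 157 to 487 coding bases and 531 to 741 bases of 3′ UTR.

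ZNF512B, a zinc finger gene, differed from these in that its peak was a stretch of 13 blocks in 5 lists, covering 1688 to 1928 of its 2679 coding bases. The folds were 7.83 and 10.7 for METTL16, 15.4 and 13.3 for eIF3a, and 14.9 and 10.6 for eIF3b. ZNF512B and MLLT6, known as a fusion partner of KMT2A in leukemia, were the genes of the 10 in which both METTL16 folds were below both eIF3a folds. MLLT6 had 6.60 and 5.19 for METTL16, 9.92 and 11.9 for eIF3a, and 18.3 and 15.2 for eIF3b, with no overlap between the proteins. OXER1 also had none, in another order, and such separation was not counted over the 139 genes. SPOCK2, a secreted proteoglycan gene, had 14.2 and 16.4, 9.02 and 4.90, and 33.4 and 9.62 for METTL16, eIF3a and eIF3b.

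NLGN2, the gene of a postsynaptic adhesion protein, had the widest range: 25.2 and 7.94 for METTL16, 10.5 and 14.4 for eIF3a, and 10.6 and 3.57 for eIF3b. Its peak in METTL16 replicate 2 was 91 bases wide, with 31 coding bases and 57 bases of 3′ UTR, while that of eIF3a replicate 2 covered 3297 bases. PACS1, which acts in sorting at the trans-Golgi network, had 12.1 and 8.93, 6.34 and 11.5, and 16.5 and 4.84. In METTL16 replicate 1 and eIF3a replicate 1 the PACS1 peak began on the last base of the TGA and held no other coding base, so it met the rule by 1 base. GIGYF1, a GRB10-interacting protein, had 13.2 and 7.83, 9.30 and 5.58, and 11.0 and 17.6. EFNA2, an ephrin ligand, had 24.0 and 8.34, 11.5 and 4.18, and 11.6 and 6.46. For both GIGYF1 and EFNA2 replicate 2 of eIF3a was the lowest of the 6 lists.

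**Figure D4:**
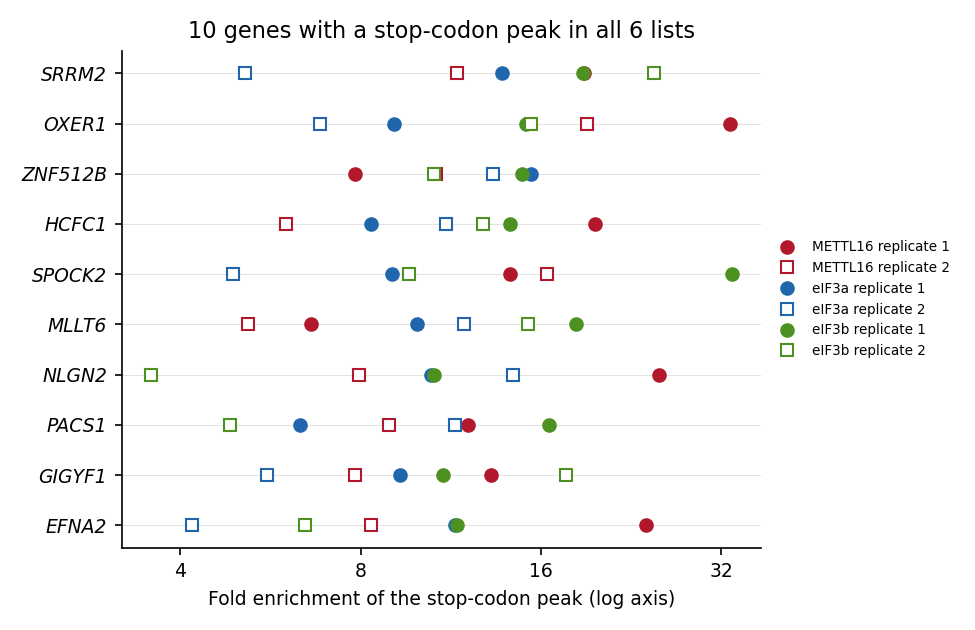
Fold enrichment over input (log axis) of the stop-codon peak of the 10 genes with the highest median fold among the 139 genes found in all 6 lists (1 point per list, filled circles for replicate 1 and open squares for replicate 2). MLLT6, from 5.19 to 18.3, and OXER1, from 6.85 to 33.1, have no overlap between proteins, in different orders. The METTL16 points of HCFC1, 6.0 and 19.7, enclose all the others.

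Of the genes with a stop-codon peak in both lists of a protein, some had none in the other 4 lists. These were 39 of 551 for METTL16, 21 of 403 for eIF3a and 120 of 1002 for eIF3b. No such count was made for start-codon peaks or peaks anywhere, so there is no background to read them against. For each protein the 5 genes with the highest lower fold were taken. This ranking used fold alone. The log10 p of their peaks, from the authors' exomePeak calls, ranged from -14.3 to -4.52 for METTL16 and from -11.7 to -2.73 for eIF3b. For eIF3a it ranged from -610 to -3.48. The METTL16 genes were MPP1, a membrane scaffold protein (46.4 and 31.0), LAPTM5, a lysosomal membrane protein (27.8 and 23.8), TSC22D3, a glucocorticoid-induced transcription regulator (19.9 and 35.7), TLR4, the lipopolysaccharide receptor (21.6 and 17.5), and SLC48A1, a heme transporter (33.1 and 14.7). TLR4 had no placed peak in any eIF3 list, and its METTL16 peak had the same edges in both replicates, chr9:117714496-117714676, with 150 coding bases and 28 bases of 3′ UTR. Edges often lay in steps of about 30 bases, as for EIF3A at 119035988, 119036018 and 119036048. Equal edges, or a distance of a few bases from a codon, therefore do not locate a binding site. SLC48A1 had a 3′ UTR peak in all 4 eIF3 lists, and MPP1, LAPTM5 and TSC22D3 had a coding peak in eIF3b replicate 1. The stop regions of the 5 genes, in the same format as before, are shown because only METTL16 lists held a called stop-codon peak there.
MPP1, stop codon at chrX:154779177-154779179, minus strand: gtctcctgggtttacTAAgcttgtagaatg
LAPTM5, stop codon at chr1:30733828-30733830, minus strand: ccatactcagaggtgTGAccctcgccaggc
TSC22D3, stop codon at chrX:107714519-107714521, minus strand: ggtggttctgcggtgTAAgtggctctgtcc
TLR4, stop codon at chr9:117714646-117714648, plus strand: gaagcaacatctatcTGAagaggaaaaata
SLC48A1, stop codon at chr12:47780279-47780281, plus strand: atcctcagcgatttcTGAcccagggggtga

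The eIF3a genes were EVPL, the gene of the desmosomal protein envoplakin (7.13 and 29.4), PABPC1L, a relative of the cytoplasmic poly(A)-binding protein (12.3 and 6.41), CHD3, a chromatin remodeller (5.95 and 4.90), RBM33 (4.59 and 37.9) and ZMIZ2 (4.78 and 4.04). All 5 had peaks elsewhere in the other lists, and for PABPC1L both eIF3b lists held 1 long peak over the start and the stop codon, which the rule leaves out. The eIF3b genes were STIMATE-MUSTN1 (19.2 and 16), GUCA1B (13.7 and 19.1), MUC20, a mucin (13.7 and 16), CACNA1H, a T-type calcium channel (13.3 and 35.2), and TEX29 (22.0 and 13.2). STIMATE-MUSTN1 is a readthrough gene, so its reads may belong to a gene it overlaps. MUC20 peaks reached only 8 bases and TEX29 peaks 5 and 35 bases past the stop codon.

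Of the genes the study worked on, EIF3A had the most stop-codon peaks. Its fold was 17.2 in METTL16 replicate 1, 11.8 and 2.90 in the eIF3a lists, and 11.9 and 9.70 in the eIF3b lists. The peak covered 10 to 12 blocks and 2158 to 2638 bases, of which only 21 or 51 were 3′ UTR, so it was mainly a coding peak that ended just past the stop codon. METTL16 replicate 2 had a peak of 9 blocks and 1949 bases on the same exons with a fold of 4.0. It stopped 6 bases before the TAA shown above and was therefore not a stop-codon peak. Each of the 3 cell lines carried a transgene, of METTL16, EIF3A or EIF3B. Reads from a transgene and from the endogenous gene cannot be told apart in a peak list. This limits the peaks of each of the 3 genes in the lists from the line that carried its transgene. EIF3B had a stop-codon peak in eIF3b replicate 1 alone, with a fold of 1.43, while its start codon was covered in 5 lists. METTL16, MAT2A and the RNA helicase gene DDX49 had none, except that eIF3a replicate 1 held a MAT2A peak over both codons. DDX47, another RNA helicase, had folds of 2.26 and 5.76 for METTL16 and 2.43 in eIF3b replicate 2. JUN, a subunit of the AP-1 transcription factor, had 3.95 in eIF3a replicate 1 and 6.63 and 4.53 in the eIF3b lists. BOP1, a ribosome biogenesis factor, had 3.28 and 3.12 for METTL16 and 2.81 in eIF3b replicate 1.

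Other gene groups were read against the 31.8% of all genes with a placed peak that had a stop-codon peak in at least 1 list. A gene with peaks in more lists has more chances to meet this, and only 25.3% of all these genes had a peak in all 6 lists. The groups were not matched for the number of lists or peaks, so their counts are a description. Of 10 other eIF3 subunit genes with a peak, 4 had one at the stop codon. EIF3D had folds of 1.91 and 1.75 for METTL16 and 1.55 and 1.39 for eIF3b, with no placed eIF3a peak, and EIF3E had 1.66 in eIF3a replicate 1 and 1.91 in eIF3b replicate 2. Of 8 genes of termination and recycling with a peak, which include the release factors ETF1 and GSPT1 and the recycling factor ABCE1, only EIF2D had a stop-codon peak, at 2.28 in METTL16 replicate 2 and 1.6 in eIF3b replicate 2. Nonsense-mediated decay removes transcripts whose stop codon is read as premature. Of its 10 genes with a peak, 7 had a stop-codon peak. SMG5 had one in all 6 lists, with 2.38 and 8.04 for METTL16, 1.66 and 1.84 for eIF3a, and 2.34 and 2.65 for eIF3b. UPF3A had 4.64 and 4.04 for METTL16, 8.71 in eIF3a replicate 1, and 9.98 and 12.2 for eIF3b, whereas the helicase gene UPF1 had peaks in all 6 lists but none on its stop codon.

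Transcripts with unusual stop codons were counted next. Of 7 genes known for stop codon readthrough with a peak, 3 (42.9%) had a stop-codon peak: VEGFA in 3 lists (1.93 to 2.99), AGO1 in both eIF3a lists (2.38 and 3.38) and ACP2 in 3 lists (2.52 to 3.37). For VEGFA the other 3 lists held a peak over both codons. Selenoprotein mRNAs read an internal UGA as selenocysteine. Of 17 such genes with a peak, 5 (29.4%) had a stop-codon peak, the most frequent being SELENOK with 1.59 in METTL16 replicate 2, 2.67 in eIF3a replicate 1 and 2.93 in eIF3b replicate 2. Of 17 genes of the N6-methyladenosine machinery, 8 had a stop-codon peak. These included all 3 IGF2BP readers, and IGF2BP1 had one in all 6 lists, with 3.60 and 2.02 for METTL16, 2.55 and 2.05 for eIF3a, and 3.75 and 3.29 for eIF3b. Among the writer genes, WTAP had one in eIF3a replicate 1 (2.86) and in both eIF3b lists (2.66 and 4.82), METTL14 had one in eIF3a replicate 1 (8.06), and METTL3, VIRMA and RBM15 had none. Of the 8 hepatocyte markers with a peak, 5 had a stop-codon peak, and HNF4A, the hepatocyte transcription factor, had one in all 6 lists, from 1.80 in eIF3a replicate 2 to 6.16 in eIF3b replicate 1.

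The genes with a stop-codon peak differed from genes with peaks elsewhere in the letters around the codon. TGA was the stop codon of 59.7% and 60.6% of METTL16 stop-codon genes, 54.1% and 55.0% of those of eIF3a, and 60.5% and 54.3% of those of eIF3b, against 48.1% to 51.0% of genes with peaks elsewhere only. Among all 19760 canonical transcripts 49.4% ended in TGA, 28.2% in TAA and 22.4% in TAG. The difference in TGA share was 8.09 percentage points ± 2.92 (SD, n = 6), above 0 in 6 of 6 lists, and that in TAA share was -8.40 percentage points ± 2.76, below 0 in 6 of 6 (exact sign-flip permutation p = 0.03125 for each). Of the 139 genes in all 6 lists, 64.7% ended in TGA and 12.2% in TAA. The base after the stop codon was G in 35.6% to 44.1% of stop-codon genes and in 30.7% to 34.0% of the others.

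Base composition moved with the stop codon. In the window of 100 bases on each side of the codon, mean GC content was 55.2% to 60.6% for stop-codon genes and 49.6% to 52.0% for the others, a difference of 7.06 percentage points ± 1.26 (SD, n = 6, exact permutation p = 0.03125). GC was nearly the same on both sides of the codon, with 56.4% to 61.1% in the coding part and 54.9% to 61.0% in the 3′ UTR part. Peak sequences held 55.8% to 61.2% GC over the stop codon, 53.4% to 60.1% within coding sequence and 48.8% to 57.3% within the 3′ UTR. Start-codon peaks held 55.3% to 67.7%, so high GC was not particular to stop-codon peaks. Stop minus start was -5.3 percentage points ± 3.6, above 0 in 1 of 6 lists (exact sign-flip permutation p = 0.0625). When genes were compared within 5 classes of window GC, an alternative chosen after seeing the data, the TGA difference shrank to 2.55 percentage points, with values from 0.19 in eIF3a replicate 2 to 6.05 in eIF3b replicate 1 (exact permutation p = 0.03125). The TAA difference became 0.11 percentage points, with 3 lists on each side of 0 (exact permutation p = 0.875). The part of GC content in where peaks were called was not tested.

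**Figure D5:**
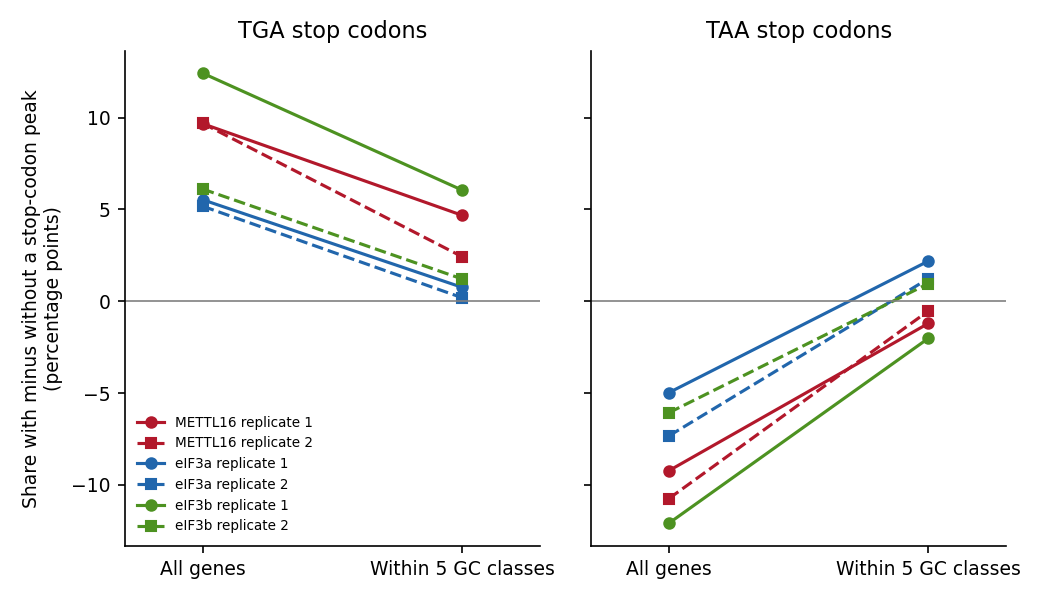
Share of genes whose stop codon is TGA (left) or TAA (right), genes with a stop-codon peak minus genes with peaks elsewhere only, in percentage points, over all genes and within 5 classes of GC content around the codon (1 line per list). Over all genes the 6 lists lie above 0 for TGA and below 0 for TAA, and within GC classes they lie between 0.19 and 6.05 for TGA and on both sides of 0 for TAA.

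Short motifs were searched on the transcript strand in the same windows. GGACT, a form of the site methylated by the METTL3 complex, was present in 23.3% to 26.9% of stop-codon genes, 22.0% to 23.5% of the others and 22.3% of all transcripts. The difference of 2.24 percentage points was above 0 in all 6 lists (exact permutation p = 0.03125) but was -0.28 within GC classes and -0.56 among peaks of at least 4-fold. ACAGAGA, the core of the U6 site that METTL16 methylates, was present in 2.13% to 3.49% of stop-codon genes and 2.89% of all transcripts. Its difference of 0.018 percentage points was above 0 in 2 of 6 lists (exact permutation p = 0.96875). AATAAA, the polyadenylation signal, was less frequent, at 3.40% to 5.96% against 7.96% to 9.60%, a difference of -4.24 percentage points, which was -0.71 within GC classes (exact permutation p = 0.03125 for each). Median 3′ UTR length was lower for stop-codon genes in each list, 902 to 1680 bases against 1337 to 1912, a log2 difference of -0.31 ± 0.137 (exact permutation p = 0.03125). Coding length differed by -0.03 on the log2 scale, with 4 of 6 lists above 0 (exact permutation p = 0.5). None of these tests passed 0.05 after adjustment.

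The edge of the rule fell within a continuous range. Peaks that ended within 10 bases outside the codon numbered 67 to 143 per list, with a median fold of 2.31 to 2.84. Peaks with an edge within 10 bases inside numbered 65 to 201, with a median of 2.34 to 3.19. A further 44 to 126 peaks per list covered both codons of a transcript and were left out.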

How the data were processed

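Members, gene lists and tests were chosen with earlier results of these data known. Reads of RIP and input samples were aligned by the authors (STAR, GRCh38), and exomePeak was run at default settings. Versions, annotation and the pairing of inputs are not given in the sources used here. The deposited lists give, per peak, exonic blocks, a gene name, a p-value, log10 values of the raw and adjusted p, which served as a score to rank peaks, and the enrichment of RIP relative to input, a ratio (fold) computed by the authors. No counts were used, so depth per sample is unknown.

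Blocks were placed on the Ensembl canonical transcript (GENCODE release 44, GRCh38) of the named gene. Of 10830 names, 10325 matched a current symbol, 443 an older symbol and 62 none, and 97.9% to 98.6% of peaks per list were placed. Placement was tested on simulated data. The 6 lists, 2 per protein, served as replicates. Paired differences over lists used an exact sign-flip permutation test, protein shares an exact permutation test, and gene sharing 95% Wilson intervals. Named genes were the 10 with a stop-codon peak in all 6 lists and the highest median fold, the 5 per protein with such a peak in both its lists and none of the other 4 and the highest lower fold, and members of fixed gene lists. Alternatives were a fold of at least 4, the 5000 smallest p-values per list, any protein coding transcript, the whole codon with 10 bases on each side, points at 150 bases, narrow peaks and leaving out each list. Those for sequence content were chosen after seeing the data. Software was Python 3.11.15, pandas 2.3.3, numpy 2.4.6, scipy 1.17.1 and matplotlib 3.10.9.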

Additional observations from a re-analysis of the deposited data

How the results depend on the processing

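The 21 results were recomputed 232 times in all, and 141 of these values were counted as unchanged. For tested differences this meant the same sign and the same side of 0.05. For the share of each protein it meant a move within its SD, and for shared METTL16 genes a value inside the Wilson interval. Some values could not change, such as the METTL16 share when an eIF3a list was left out. The tests of 2 against 2 lists and of the Jaccard difference could not pass 0.05 under any setting. With 5 lists no exact permutation p could be below 0.0625, so each result with an exact p of 0.03125 lost the threshold when a list was left out, by construction. Leaving out 1 list at a time, the log2 fold difference ranged from -0.28 to -0.17 against start-codon peaks and from 0.20 to 0.24 against coding peaks, and stop minus downstream coverage from 7.68 to 9.07 percentage points. METTL16 minus eIF3a share ranged from 1.19 to 3.10, eIF3a minus eIF3b share from -3.33 to -1.42, and METTL16 minus eIF3b share from -0.55 to 0.092, with the sign turned without eIF3b replicate 1. The share of METTL16 genes also held by eIF3a ranged from 17.5% (without METTL16 replicate 1) to 65.0% (without eIF3a replicate 2), while for eIF3b it went from 40.9% to 83.1%, the extremes being those without METTL16 replicate 1 and without eIF3b replicate 2. A set then rests on 1 list, so it holds at least as many genes.

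Stop-codon shares changed with the definition. The METTL16 share was 8.68% at 4-fold, 13.4% among 5000 peaks, 9.57% with any transcript, 7.49% with the strict overlap and 8.92% with peaks over both codons kept. The eIF3a share was 11.1% among 5000 peaks. The eIF3b share was 15.97% among 5000 peaks, 9.75% with any transcript, 7.67% with the strict overlap and 9.17% with peaks over both codons kept. Against coding peaks the log2 fold difference was -0.059 at 4-fold and -0.10 in narrow peaks, and against 3′ UTR peaks -0.29 in narrow peaks. Stop minus start coverage was -1.71 at 4-fold and 2.75 with the strict overlap. Stop minus upstream coverage was -2.26 at 4-fold, -3.81 among 5000 peaks, -3.61 with any transcript, -2.12 with the strict overlap and -3.47 at 150 bases, each with exact p = 0.03125. METTL16 genes also held by eIF3a were 14.3% at 4-fold, 23.6% among 5000 peaks and 52.5% with either list, and by eIF3b 39.1%, 52.6% and 71.3%. TAA share within GC classes was 0.11, and GGACT -0.28 within GC classes and -0.56 at 4-fold. The causes of these changes were not tested.

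With the replicate number as a block, the share differences were 2.15, -0.23 and -2.37 percentage points, and the Jaccard difference over pairs of the same number was 0.044. The numbers are not stated to mark a shared culture, and the stop-codon share of replicate 1 lay above its protein's mean for eIF3a and eIF3b and below it for METTL16. The block could not have changed a call, so its part in these results was not tested. With 2 replicate numbers no share difference could pass the threshold in a permutation test. For the Jaccard difference no p-value was computed under the block. Depth is unknown, and 2 lists per protein limit each comparison between proteins.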
